A study of Mus musculus with 8 samples.

Results

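Regions of open chromatin that were called as peaks in all 3 control libraries expressing GFP, and in no library expressing Ezh2 or its mutant Ezh2-Y726D, were examined in sorted mouse retinal ganglion cells (RGCs). Overlapping peaks (by 1 bp or more) of the 8 lists were joined on chromosomes 1 to 19, which gave 186387 merged regions. Of these, 618 had a peak in each GFP list and in no other list and are called GFP only regions. They were chosen by the presence or absence of these peaks, so their absence from the Ezh2 and Ezh2-Y726D lists is the rule of selection and not a result. A missing peak says that a region did not pass the peak caller's threshold in that library, not that it was closed.

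C57BL/6J mice received AAV2-GFP (3 samples), AAV2-Ezh2 (3 samples) or AAV2-Ezh2-Y726D (2 samples) by intravitreal injection. The optic nerve was crushed 2 weeks later, and 50000 sorted cells per library were profiled by ATAC-seq 3 days after the crush. Thus the GFP samples had also undergone viral transduction and nerve injury, and no uninjured sample was part of the comparison. Cells were sorted by the surface protein Thy1 (CD90.2), which T cells also carry, and the virus can reach other cells of the retina besides RGCs. The labels did not tie samples to animals or batches. In bulk samples, a change in the proportion of a cell type and a change within its cells cannot be told apart.

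Ezh2 is the catalytic subunit of Polycomb repressive complex 2, which methylates lysine 27 of histone H3, a mark of repressed genes. In the Y726D form, a tyrosine of the protein is replaced by aspartic acid, which removes the methyltransferase activity. ATAC-seq uses a transposase that cuts accessible DNA, so peaks mark promoters, enhancers and other sites where nucleosomes are displaced. Promoters tend to be open in many cell types, whereas weak sites within introns and between genes vary more between cells and conditions.

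Of the GFP only regions, 7 overlapped a RefSeq promoter (GRCm38.p6), taken as 250 bp before to 50 bp after a gene's start. The 250 bases before the start are shown for the 5 promoters whose start lay inside a region. This is the merged region, so a single control peak need not cover the start. Most of the 5 were weak, with mean percentiles of fold within the lists of 0.878 (Prcd), 1.07 (Gm29975), 2.72 (Cutal), 14.7 (A930031H19Rik) and 52.6 (D530049I02Rik). Capitals mark matches on either strand to the letters GGATTA (bound by CRX, a homeobox factor of photoreceptors), AGGTCA (core of nuclear receptor sites), TGCTGA (core of sites of NRL, a rod factor), TGTGGTT (RUNX), CAGCTG (an E-box), ACAATGG (SOX) or GGAATG (TEAD).
Prcd promoter, chr11:116656858-116657107, plus strand: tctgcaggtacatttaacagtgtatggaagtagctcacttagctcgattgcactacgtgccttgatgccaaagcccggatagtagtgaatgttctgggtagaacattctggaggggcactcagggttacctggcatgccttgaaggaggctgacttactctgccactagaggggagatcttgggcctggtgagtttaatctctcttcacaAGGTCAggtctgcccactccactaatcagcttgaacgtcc
Cutal promoter, chr2:34874146-34874395, plus strand: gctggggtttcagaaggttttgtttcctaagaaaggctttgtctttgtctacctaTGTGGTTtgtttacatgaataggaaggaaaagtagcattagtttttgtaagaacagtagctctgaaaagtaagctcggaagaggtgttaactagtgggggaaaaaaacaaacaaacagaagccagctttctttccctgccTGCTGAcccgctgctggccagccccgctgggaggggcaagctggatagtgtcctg
Gm29975 promoter, chr15:27995083-27995332, minus strand: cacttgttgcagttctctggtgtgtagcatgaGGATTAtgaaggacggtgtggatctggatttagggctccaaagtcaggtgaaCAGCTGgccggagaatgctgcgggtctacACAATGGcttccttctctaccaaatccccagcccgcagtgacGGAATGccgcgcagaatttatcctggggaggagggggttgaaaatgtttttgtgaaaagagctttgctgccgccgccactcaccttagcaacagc
A930031H19Rik promoter, chr4:131010475-131010724, minus strand: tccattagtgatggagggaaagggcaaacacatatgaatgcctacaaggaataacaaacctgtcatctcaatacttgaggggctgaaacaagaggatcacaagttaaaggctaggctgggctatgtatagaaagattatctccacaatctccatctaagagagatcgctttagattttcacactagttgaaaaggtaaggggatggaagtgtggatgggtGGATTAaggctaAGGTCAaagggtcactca
D530049I02Rik promoter, chr1:73398718-73398967, plus strand: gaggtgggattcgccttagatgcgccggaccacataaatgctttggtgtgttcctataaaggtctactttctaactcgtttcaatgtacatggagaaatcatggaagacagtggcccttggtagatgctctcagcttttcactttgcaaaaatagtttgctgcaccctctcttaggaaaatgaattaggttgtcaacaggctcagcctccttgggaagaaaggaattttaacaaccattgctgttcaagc
The last of these held no match to the letters above. In the full window of 300 bp, GGATTA was present in 3 of the 7 promoters, beside 7.06% of all 31396 promoters and 5.53% of the 15237 that overlapped a region open in all 8 lists. AGGTCA was present in 2 of 7, beside 16.3% of all promoters. The median GC content of the 7 was 46.3%, against 61.3% for promoters open in all 8 lists and 53% for all promoters. A match of letters is not a bound site, and 7 promoters are too few to read a preference from.

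The GFP only regions formed a small class. They made up 0.681% of the 90769 regions that every GFP list held. Just outside the rule stood 986 regions with all 3 GFP peaks and a peak in exactly 1 other list, which was an Ezh2 list for 572 and an Ezh2-Y726D list for 414. A further 1411 regions had 2 of 3 GFP peaks and none elsewhere. By comparison, 2085 regions had all GFP and both Ezh2-Y726D peaks but no Ezh2 peak, and 6791 had all GFP and all Ezh2 peaks but no Ezh2-Y726D peak. Regions with peaks in all 3 Ezh2 lists only numbered 3689, and 934 had peaks in all 5 lists of both forms but in no GFP list. The number of lists that had to agree differs between these classes, and no test was made.

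**Figure D1:**
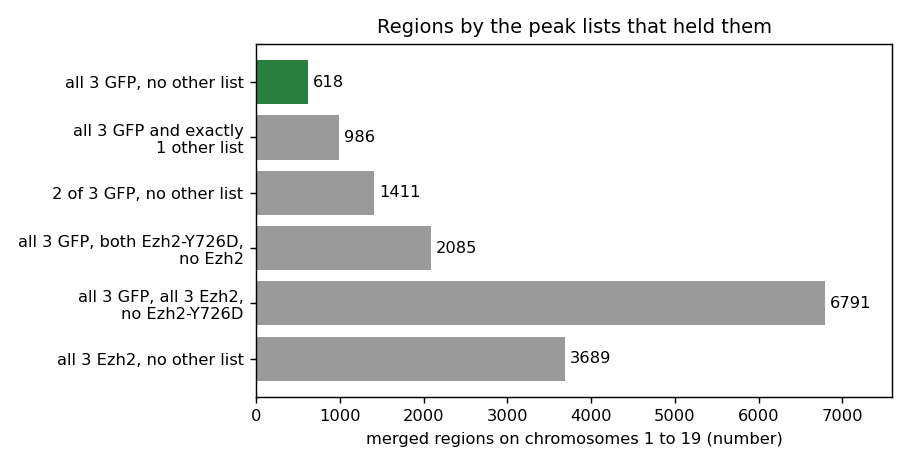
Number of merged regions on chromosomes 1 to 19 (horizontal axis) by the peak lists that held them (1 bar per class, counts printed). Of the 6 classes drawn, the 618 GFP only regions form the shortest bar.

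The lists differed in size. GFP replicates 1 and 2 had the shortest, at 115710 and 112939 peaks. GFP replicate 3 had 133674, within the range of 124666 to 135895 of the Ezh2 and Ezh2-Y726D lists. With so few samples, the test below cannot show that the groups were alike. The GFP lists held 120774 ± 11257 peaks (SD, n = 3), and the other 5 held 128621 ± 4337 (SD, n = 5), with a difference of -7847 (p = 0.179, two-sided exact permutation test over all 56 splits, whose smallest p is 0.0357). The background read level of the libraries, a relative measure of depth, differed by 0.119 reads (p = 0.786, the same exact test). Each list had peaks at the ends of 16 to 18 of 20 RGC identity genes. Of 20 rod genes, 18 had such a peak in each GFP list and 16 to 18 in the others. Over all lists, the counts were 17 to 18 of 20 for Müller glia and 17 to 19 of 19 for bipolar cells. For amacrine cells they were 15 to 17 of 20. Markers of several other retinal cell types, not of rods alone, were thus open besides those of the labelled cell type. Of 20 T cell genes, 18 to 20 had a peak in the GFP lists and 20 in each Ezh2 list, but only 10 and 9 in the Ezh2-Y726D lists, and microglial genes stood at 12 to 16 of 19 with GFP, 14 to 16 with Ezh2 and 5 in both Ezh2-Y726D lists. These are counts of genes with a peak and not of cells, and their part in the GFP only regions was not tested. Ezh2 itself (chr6:47530274-47595270) held 13 merged regions and no GFP only region, and the GABA transporter gene Slc6a13 held 6 and none.

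GFP only regions were weak and narrow peaks. Their median fold, the ratio of reads at the summit to the local background, was 3.81, 4.07 and 3.799 in GFP replicates 1, 2 and 3. Regions open in all 8 lists had median folds of 5.89, 6.24 and 6.33 in the same libraries. In terms of the percentile of a peak's fold within its own list, the median region stood at the percentile 30.0, against 67.8 for regions open in all 8 lists. Only 106 of the 618 were above the median of their lists on average, and 4 were above the percentile 75. Like classes were similarly weak in their own lists. The median percentile was 32.6 for Ezh2 only regions and 33.7 for regions of both forms without GFP. It was 27.9 for regions with all 3 GFP peaks and exactly 1 other list. Strength enters the rule, since a weak peak is more easily missing from a list, so weakness was not particular to the GFP only class. The summit was covered by a median of 20, 18 and 22 reads, so each fold rested on few reads. Median width was 382 bp, compared with 448 bp for regions found only in Ezh2 lists and 941 bp for those in all 8.

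Not all of them lay at the threshold, however. All 3 GFP peaks had a −log10 q of at least 2 in 614 regions, of at least 5 in 271 and of at least 10 in 30. The limit of 2 removed few peaks of any kind. Of 120774 peaks per GFP list on average, 120581 met it and 97432 met the limit of 5, each list taken alone. In 471 regions (76.2%), the lowest of the 3 GFP folds was above 2.95, the highest of the 5th percentiles of fold in the other lists. In 85, it was above 4.58, the lowest of the median folds of those lists. The order of strength was shared among the GFP lists, with Spearman's rho across the 618 regions of 0.684 to 0.695, compared with 0.894 to 0.895 across regions open in all 8 lists. These correlations are across regions, which are not independent replicates. In GFP replicate 1, fold spanned 2.01 to 8.48 over the 618 regions and 1.69 to 23.5 over regions in all 8 lists. A narrower span by itself can lower rho, so the lower values are not read as poorer agreement.

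The strongest GFP only regions lay mostly inside genes. The first lay within Mboat4, the enzyme that acylates ghrelin (chr8:34113608-34114004), with folds of 7.30, 8.38 and 8.61 over the 3 GFP lists and 30, 32 and 40 reads at the summit. The second was within Chuk, a kinase of the NF-κB pathway (chr19:44087428-44088069), with folds of 8.01, 7.87 and 7.81 from 33, 28 and 36 reads. All 6 of these values exceeded the median fold of regions open in all 8 lists in the same library. Next came Trappc6b, a subunit of a vesicle tethering complex (folds of 5.89, 7.32 and 7.60), and Cenpe, a mitotic kinesin (6.59, 6.78 and 7.18). Regions within Atad2b, a bromodomain ATPase, and Dnah9, an axonemal dynein, followed with mean folds of 6.70 ± 0.59 and 6.67 ± 0.866 (SD, n = 3). Gm35438, a long noncoding RNA gene, showed the widest spread of the 12 strongest, with folds of 8.24, 7.87 and 4.85. The remaining 5 were in or near Megf11, which spaces amacrine and horizontal cells in the retina, Camk2d, a calcium-dependent kinase, Rhbdl3, and the noncoding genes Gm30378 and Gm5833. Their mean folds lay between 6.30 and 6.61. For Camk2d the 3 libraries differed little, with folds of 6.34, 6.24 and 6.33. Except for the regions in Mboat4, Atad2b and Camk2d, the local background was the library's genome-wide level in all 3 libraries, and the nearest peak of any other list was between 3278 and 59993 bp away over the 12.

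**Figure D2:**
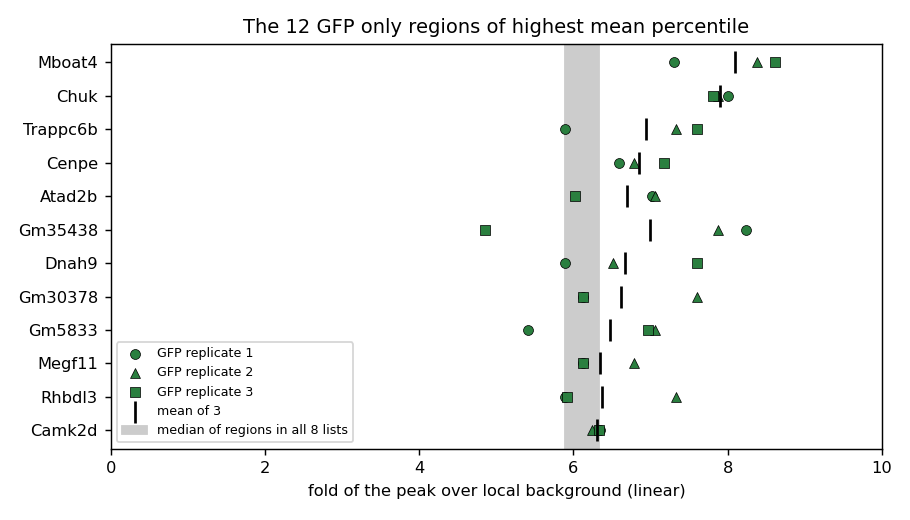
Fold of the peak over local background (horizontal axis, linear) in each GFP replicate (markers) and their mean (vertical tick) for the 12 GFP only regions of highest mean percentile, with the range of the 3 GFP medians of regions open in all 8 lists (grey band, 5.89 to 6.33). The regions of Mboat4 and Chuk lie to the right of the band in all 3 libraries, and Gm35438 spreads from 4.85 to 8.24.

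Relative to genes, the GFP only regions were intragenic and largely away from starts. They lay inside a protein-coding or long noncoding gene in 418 cases (67.6%), within 1 kb of a gene end in 42 (6.80%) and between genes in 158 (25.6%). The same shares were 55.6%, 13.9% and 30.5% over all merged regions, 48.4%, 25.1% and 26.6% over those in all 8 lists, and 59.6%, 8.81% and 31.6% over those in Ezh2 lists only. The share inside a gene was 66.1% for regions with all 3 GFP peaks and exactly 1 other list. It was 65.0% for those with 2 of 3 GFP peaks and none elsewhere. A region that covered the start of a protein-coding gene was rare, with 3 of 592 (0.507%) against 6.18% of all merged regions. The 592 are the members on chromosomes for which start sites were given. Some genes on these chromosomes had no start in the promoter table either, so starts can be missed in every class. The share over a listed start was 1.06% for Ezh2 only regions and 0.563% for regions of both forms without GFP. It was 0.221% for regions with 2 of 3 GFP peaks and none elsewhere. The place relative to genes was thus not particular to the GFP only class. When a gene end was taken as 3 kb instead of 1 kb, the share at gene ends was 19.7%, beside 22.5% of all merged regions.

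The density of GFP only regions varied with the distance to a start. Distances are to the starts in the promoter table, which lacked some genes, so some distances can be too long. For the region in Mboat4, the nearest listed start was 1163582 bp away. Within 2 to 5 kb of the nearest protein-coding start, 39 GFP only regions were found, or 7.11 per 1000 merged regions at that distance. The density was 5.33 per 1000 at up to 1 kb, 4.14 at 10 to 50 kb and 2.43 at over 50 kb, but only 0.27 per 1000 over a start itself. Of each 1000 merged regions over a start, 912 were in all 8 lists, against 315 to 363 at the other distances. Few regions over a start could therefore be GFP only. The 51 regions at 1 to 5 kb made up 8.61% of the class, compared with 6.43% for Ezh2 only regions and 4.33% for all merged regions. They had a median of 43 reads at the summit over a local background of 14.01 reads, compared with 19.7 reads over 3.30 at 10 to 50 kb. Their fold was thus lower (median of 3.09 against 4.16) although more reads lay under each peak. Ezh2 only regions at 1 to 5 kb had a similarly high local background (median of 10.3 reads), so this was not particular to the GFP only class. Of the 618, 113 had a mean local background of 8 reads or more, and 38 of the 108 of these with a start distance lay at 1 to 5 kb. Among the 379 with a background under 4 reads, 7 of 363 did.

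**Figure D3:**
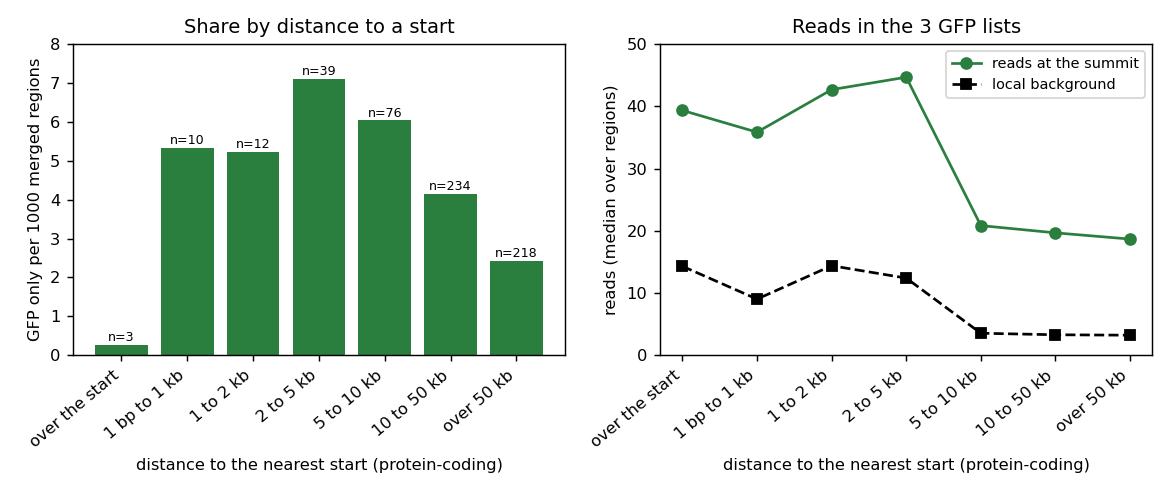
Left, GFP only regions per 1000 merged regions (bars, number of regions printed) by distance to the nearest listed start of a protein-coding gene, from over the start to over 50 kb. Right, median reads at the summit (circles) and median local background (squares) of the same regions over the 3 GFP lists. Density peaks at 7.11 per 1000 at 2 to 5 kb, and reads and background fall together beyond 5 kb.

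Several of the regions with the most reads lay within a few kb of a start. In Mef2d, a transcription factor of neurons, a region 5493 bp from the nearest start (chr3:88147865-88148224) was covered by 101, 92 and 104 reads over a local background of 37.7, 32.4 and 44.1, which gave folds of only 2.64, 2.78 and 2.33. Mgat1, which starts the processing of complex N-glycans, held 2 regions, 988 and 1390 bp from the nearest start, with 91, 68 and 98 reads in the first and 85, 70 and 89 in the second. The 3 regions with the lowest mean percentiles were of this kind. They lay in Fam161a, a ciliary gene mutated in retinitis pigmentosa (folds of 2.13, 2.21 and 2.07), in Elfn1, a synaptic adhesion protein of rods and interneurons (2.10, 1.96 and 2.23), and near Raph1, a regulator of actin (2.30, 2.21 and 2.06). Their summits carried 38 to 61 reads, and the nearest peak of another list was 1221 to 2331 bp away.

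Gene ends gave few examples. Only 24 GFP only regions lay within 1 kb of an end of a protein-coding gene. The 6 strongest were those of B4galt1, a galactosyltransferase, Zscan29, a zinc finger gene, Ptpmt1, a mitochondrial phosphatase, Ssr2, a translocon subunit, Slc22a28, an anion transporter, and Rnf135, a ubiquitin ligase. Mean folds declined from 6.12 ± 2.07 in B4galt1 (folds of 8.48, 4.61 and 5.28) to 4.45 ± 0.386 in Slc22a28 and 4.45 ± 0.926 in Rnf135 (SD, n = 3). With the strand in the promoter table, the ends were the 3′ ends of B4galt1, Zscan29, Ptpmt1 and Rnf135, and the start of Slc22a28, whereas the strand of Ssr2 was not given there. Of the 5 promoters printed above, Prcd, a gene of photoreceptor discs, had the most reads at 94, 90 and 91, with folds of 2.36, 2.55 and 2.02 over a local background of 34.7 to 44.5 reads.

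The positions of the summits were compared among the control libraries. The summits of the 3 GFP peaks lay within a median of 44.5 bp of each other, against 80 bp over the 3 Ezh2 lists for Ezh2 only regions. They lay within 25 bp in 32.7% and 19.7% of these classes. Regions open in all 8 lists, most of them stronger, were close to the GFP only regions in the same GFP lists, with a median of 53 bp and 32.9% within 25 bp. The spread was lower for GFP only regions in every bin of strength. At a mean percentile of 50 or more, the medians were 22.5 bp for 106 GFP only regions and 51.5 bp for 694 Ezh2 only regions, with 55.7% and 26.2% within 25 bp. At a percentile of 30 to 40 they were 47 and 80.5 bp. By bin, regions open in all 8 lists stood at 107 bp at a percentile of 30 to 40 and at 39 bp at 50 or more. In addition, the median width of GFP only regions stayed between 370 and 394.5 bp over all bins, whereas that of Ezh2 only regions was 407 bp in the lowest and 532 bp in the highest bin. Width enters the rule, since a wide region is more likely to meet a peak of another list, so these values are a description of the class.

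**Figure D4:**
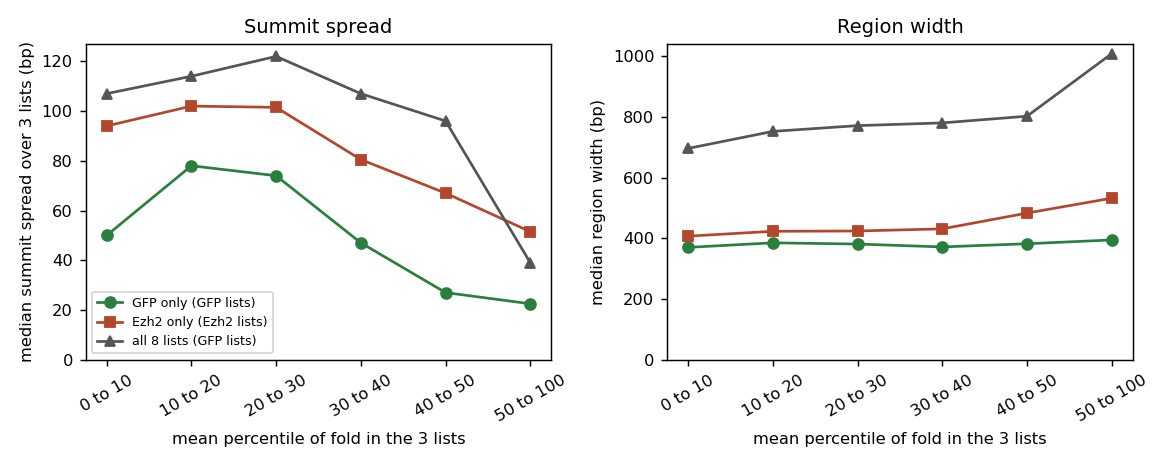
Median distance between the outermost summits of the 3 lists (left, bp) and median region width (right, bp) by mean percentile of fold, for GFP only regions in the GFP lists, Ezh2 only regions in the Ezh2 lists and regions open in all 8 lists in the GFP lists. GFP only regions have the lowest spread in every bin, between 22.5 and 78 bp, and a median width between 370 and 394.5 bp.

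The GFP only regions were scattered over many genes. Of 20665 protein-coding genes, 411 (1.99%) had at least 1 within 1 kb, and 23 had 2 or more. Genes with a region were long, with a median of 96.8 kb against 17.5 kb for all. Longer genes have room for more merged regions of any kind (119 per Mb over all protein-coding genes). Genes of like length were not compared, so the length is not read as particular to the class. Gulp1, an adaptor for engulfment of dying cells, was the only gene with 3, at mean folds of 5.11, 3.58 and 4.65. Dpy30, a subunit of histone H3 lysine 4 methyltransferase complexes, held 2 regions with mean folds of 5.57 and 5.20. Phlpp2, a phosphatase acting on Akt, Limk2, a kinase of the cofilin pathway, Igdcc3, Trafd1, Mgat1 and Fam161a also held 2. By chromosome, the density was between 1.57 (chromosome 16) and 4.42 (chromosome 11) per 1000 merged regions.

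Gene lists of RGC biology were read against the 1.99% of all protein-coding genes with a GFP only region and the 3.64 such regions per 1000 merged regions in those genes. No GFP only region was found at any of 20 RGC identity genes, 45 developmental transcription factors, which include Polycomb targets, 18 AP-1 and injury factors, 17 apoptosis genes, 17 heat shock genes or 8 GABA and glycine transporters. Müller glia, amacrine, microglia and endothelial markers had none either. These lists held few merged regions, such as 83 in the RGC identity genes and 119 in the developmental transcription factors, so a count of 0 is near the background. Of 25 subunits of the Polycomb complexes, only Rbbp4, a histone chaperone, had a region (folds of 4.71, 4.07 and 5.07). Among axon guidance genes, 4 of 24 receptors and 2 of 21 ligands had a region. They were Plxna2 (mean fold of 5.28 ± 0.91) and Plxna4 (3.00 ± 0.0636), which transduce semaphorin signals, Epha5 (4.62 ± 0.483), Dcc, the netrin receptor (3.61 ± 0.364), Sema5b (3.30 ± 0.213) and Slit1 (3.04 ± 0.49, SD, n = 3 for each). These long genes also held many regions of other kinds. The density was 4.48 GFP only regions per 1000 merged regions in the receptors and 4.50 in the ligands, near the background of 3.64.

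The remaining lists of neuronal genes held 1 to 3 genes with a region. Of 26 axon growth inhibitors and their receptors, Rtn4rl1, a homolog of the Nogo receptor, held a region at folds of 2.88, 2.75 and 2.85. Of 28 regeneration-associated genes, Lifr, a cytokine receptor subunit, held a region at folds of 4.71, 4.61 and 4.22. Cacna2d3, a calcium channel subunit, was the only one of 36 voltage-gated channel genes (mean fold of 3.53), and Grm5, a glutamate receptor, the only one of 34 transmitter receptors (3.32). Among 28 genes of synaptic vesicles and release, Dlg2 (2 regions), Sv2b and Unc13c held regions, with mean folds of 4.53 and 2.77, 2.86 and 3.19. Per 1000 merged regions, beside the 3.64 of all protein-coding genes, there were 4.29 GFP only regions in the growth inhibitor list, 4.63 in the regeneration list, 0.894 in the channels, 1.02 in the transmitter receptors and 3.33 in the synaptic list. Nothing particular to a list is read from these values, which rest on 1 to 4 regions each.

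Genes of other cell types were also among them, again beside 1.99% of all protein-coding genes. Of 20 rod genes, Cnga1, a subunit of the rod channel, and Pde6b, the rod phosphodiesterase, held a region (2 of 100 merged regions in the list). The region 877 bp from the start of Cnga1 (chr5:72643629-72643977) had 51, 49 and 55 reads and folds of 3.68, 4.39 and 3.76, with summits within 13 bp. That of Pde6b was weaker, with 18, 14 and 14 reads and a summit spread of 472 bp. Another photoreceptor gene, Rd3, was the nearest to an intergenic region with folds of 5.18, 8.14 and 5.91. Rd3, Mef2d and Prcd were named after their values were seen. Of 20 T cell genes, Cd247 and Cd8a held a region (mean folds of 2.72 and 3.72, 2 of 170 merged regions), and of 19 bipolar genes Prkca did (3.39, 1 of 212 merged regions). These counts are too small to be set apart from the background.

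Although absent from the other lists, GFP only regions often had peaks of those lists nearby. The nearest one was within 200 bp in 31 cases, within 1 kb in 138 (22.3%) and within 10 kb in 537 (86.9%), with a median distance of 2598 bp. Distances for other classes are not given here, and peaks are dense, with 186387 merged regions. These counts are therefore not read as particular to the class. To ask whether chromatin around the GFP only regions differed between groups, regions open in all 8 lists were compared in limma on normal scores of the rank of fold within each list, with Benjamini-Hochberg adjustment over 68278 regions. Within 10 kb of a GFP only region, 625 such regions were present. Ezh2 against Ezh2-Y726D is the contrast that the rule did not use. In it, 66 of 625 neighbours were called at an adjusted p under 0.05 (10.6%), 33 higher (5.28%) and 33 lower (5.28%) with Ezh2. Over all regions, 14.1% were called, 7.09% higher and 7.01% lower. Within 50 kb, 12.6% of 2889 regions were called. The difference between neighbours and all regions was not tested. When peaks were ranked by −log10 p, the neighbours split into 47 higher and 29 lower, and all regions into 5844 higher and 3947 lower.

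The contrasts with GFP share the same control samples and are those on which members were selected, so they are given as a description. With Ezh2 against GFP, 11 neighbours were higher (1.76%) and 21 lower (3.36%), or 32 in all (5.12%), beside 1.61%, 2.86% and 4.47% over all regions. With Ezh2-Y726D against GFP, 16 were higher (2.56%) and 26 lower (4.16%), or 42 in all (6.72%), beside 3.58%, 4.7% and 8.27%. The median difference of neighbours in normal scores was 0.06 and 0.07, and that of all regions was 0.01 and -0.01. In both contrasts more neighbours were called lower than higher, as among all regions, although the median difference of neighbours was above 0.

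At 4 neighbours, the difference between Ezh2 and Ezh2-Y726D was the largest among those nearest to a GFP only region. A region 5898 bp from the GFP only region near Gm39841 had folds of 8.48, 10.3 and 9.71 with GFP, 14.4, 12.5 and 11.8 with Ezh2, and 4.13 and 4.12 with Ezh2-Y726D. The 3 groups did not overlap, and Ezh2 was above Ezh2-Y726D by 3.04 ± 0.201 units of normal score (SE, limma adjusted p = 0.000215). A neighbour of the region in Herc3, a ubiquitin ligase, had folds of 3.71, 3.63 and 3.59 with GFP, 5.69, 6.78 and 5.74 with Ezh2, and 3.15 and 2.59 with Ezh2-Y726D (difference of 2.15 ± 0.217, limma adjusted p = 0.000736). The opposite order was seen near Gbx2, a homeobox gene, where folds were 2.93, 3.21 and 3.30 with Ezh2 and 7.88 and 6.35 with Ezh2-Y726D, with GFP in between at 3.69, 4.32 and 4.75 (difference of -1.96 ± 0.243, limma adjusted p = 0.00151). In Ncoa7, a nuclear receptor coactivator, folds were 4.64, 4.15 and 3.49 with Ezh2, 9.45 and 9.46 with Ezh2-Y726D, and 4.71, 7.87 and 6.97 with GFP (difference of -1.90 ± 0.318, limma adjusted p = 0.00475). The 3 groups did not overlap, although the lowest GFP fold (4.71) was close to the highest with Ezh2 (4.64).

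**Figure D5:**
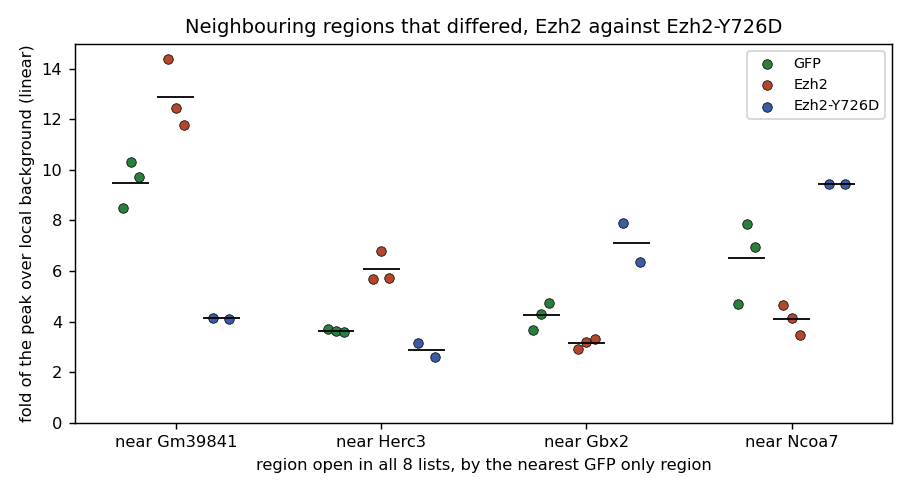
Fold of the peak over local background (vertical axis, linear) in each library (points, GFP, Ezh2 and Ezh2-Y726D; bars are group means) for 4 regions open in all 8 lists, named by the nearest GFP only region. Ezh2 lies above Ezh2-Y726D in the 2 on the left and below it in the 2 on the right.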

How the data were processed

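ATAC-seq peak lists of 8 samples were analysed, 1 list per sample. The submitters' processing notes name cutadapt, Bowtie2, SAMtools, Picard, MACS2 and deepTools, and the build GRCm38. Peaks were called by the authors in each sample and not on pooled samples. The deposited lists give a score (not used), a fold, which is a ratio of reads at the summit to the local background, the −log10 p-value and −log10 q-value of the authors' peak caller, and the summit's distance from the peak start. No read totals are given in the lists. Because fold and −log10 p together fix whole reads at the summit (k + 1 over background + 1, with a Poisson p-value), reads and local background were recovered for 100% of peaks within 0.005 in −log10 p.

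Peaks sharing at least 1 bp were merged on chromosomes 1 to 19. Where a list had several peaks in a region, the peak of highest fold was used. The members and gene lists were chosen with earlier results of these data known. Genes came from RefSeq (GRCm38.p6), with gene ends within 1 kb, and starts from its promoter table. That table covered chromosomes of 592 members and lacked some genes on them. Named were the 12 regions of highest mean percentile, the 6 highest within 1 kb of an end of a protein-coding gene, the 3 lowest, genes with the most regions, up to 4 genes per gene list, Ezh2 and Slc6a13, and up to 4 whose nearest shared region differed between Ezh2 and Ezh2-Y726D. No genome sequence was used, so sequences and motifs are given for promoters only.

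Regions in all 8 lists were tested with limma 3.58.1 in R 4.3.3 (lmFit, eBayes, all samples in 1 fit) at an adjusted p under 0.05. Single values were tested by exact permutation over samples. P-values measure only the spread between these samples, which may be technical. The merge, the read recovery and limma were tested on simulated data. Alternatives were the overlap, the merge distance, lists of equal length, −log10 q thresholds, chromosome X, the gene end distance, neighbours within 50 kb, ranks of −log10 p, a replicate block and leaving out each sample. Same-numbered samples did not deviate together (correlations of at most 0.049), so no pairing was used. This also held with the numbers in the peak names, which are 2 and 3 for Ezh2-Y726D replicates 1 and 2. The block used the numbers of the titles.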

Additional observations from a re-analysis of the deposited data

Results flagged for a closer look

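The 4 regions open in all 8 lists that are named above differed between Ezh2 and Ezh2-Y726D, which is a test of whether their effects relative to GFP differ. Near Gm39841 the difference was 3.04 units of normal score, near Herc3 2.15, near Gbx2 -1.96 and near Ncoa7 -1.90. Each was called in limma with ranks of −log10 p, with the replicate block and with each sample left out, with a range over samples left out of 2.90 to 3.13, 1.89 to 2.41, -2.20 to -1.72 and -2.07 to -1.71. Without an Ezh2-Y726D replicate, that arm was a single sample assumed to vary like the other groups. They were the largest of 36 such differences and were not chosen independently of them. The gap between groups relates to the neighbours and not to the GFP only regions, which have no peak in the Ezh2 or Ezh2-Y726D lists. The groups of 3 and 2 samples were too small to look for a sample apart from its group.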

How the results depend on the processing

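The number of GFP only regions was 618 and became 860, 585, 810, 623, 615 and 636 with coverage of 0.5 required, merging within 200 bp, lists of equal length, −log10 q of at least 2 or 5 in every list, and chromosome X. Of the 618, 464 were shared with the equal lists and 271 with the limit of 5 in every list, so the count held better than its members. With the limit of 5 for GFP peaks only it was 271. It ranged from 745 to 1231 when a sample was left out, reaching 1150 without GFP replicate 1 and 1231 without GFP replicate 2, because fewer lists then had to agree. The median percentile of 30.0 became 36.6, 30.9, 33.2, 43.3, 44.8 and 30.2 with coverage of 0.5, merging within 200 bp, equal lists, the limit of 5 in every list, the limit of 5 for GFP peaks only and chromosome X, and 24.2 to 30.2 without a sample. With gene ends at 3 kb, 58.3%, 19.7% and 22.01% of regions were inside a gene, at an end and between genes. These shares ranged from 65.6% to 67.8%, 6.20% to 7.36% and 25.3% to 27.7% without a sample. The difference in number of peaks ranged from -14297 to -3929 without a sample and was not called in any setting tried. Leaving out a sample leaves fewer splits, so a missing call says little there. Without GFP replicate 3, both remaining GFP lists were shorter than every other list, and p was still 0.0952 (exact permutation test).

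Neighbours called within 50 kb numbered 133 of 2889 for Ezh2 against GFP. They numbered 221 for Ezh2-Y726D against GFP, and 365 for the contrast of both Ezh2 forms. These are 4.60%, 7.65% and 12.6%, beside 4.47%, 8.27% and 14.1% of all regions. Within 10 kb they ranged, in the same order of contrasts, from 12 to 27, 8 to 40 and 25 to 65 without a sample. Calls over all regions fell in every such fit too, for Ezh2 against GFP from 3055 (4.47%) to 1157 (1.69%) without GFP replicate 2. Among neighbours they fell in that contrast to 12, 13 and 16 without GFP replicates 2, 3 and 1. These are 1.92%, 2.08% and 2.56%, beside 1.69%, 1.68% and 2.46% of all regions. Without Ezh2 replicates 1 and 3, 13 and 14 neighbours were called (2.08% and 2.24%, beside 2.02% and 1.86%). For Ezh2-Y726D against GFP they fell to 26, 8 and 25 without GFP replicate 1 and without Ezh2-Y726D replicates 1 and 2, and Ezh2 against Ezh2-Y726D fell to 25 and 28 without the latter. With the replicate block, 17, 29 and 52 neighbours were called (2.72%, 4.64% and 8.32%), beside 3.15%, 6.94% and 11.7% of all regions. However, the replicate numbers are shared only as labels, and same-numbered samples had correlations of deviations from -0.0152 to 0.049. Ranked by −log10 p, 16 neighbours were higher and 45 lower with Ezh2-Y726D against GFP, beside 2055 and 4866 over all regions. Without an Ezh2-Y726D replicate, the remaining sample is assumed to vary like the other groups. Reads at the summit limit the precision of every fold.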
